A study of Mus musculus with 12 samples.

Results

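Interleukin 1 and inflammasome genes were described in kidney cortex as 10 genes picked by symbol, Il1a, Il1b, Il18, Il1rn, Il1r1, Il1r2, Nlrp3, Casp1, Casp4 and Gsdmd, out of 24452 symbols in the count table. All 10 were found, and 8 passed the filter on low counts that precedes the test across genes. Il1a, with 22 counts over all libraries, and Il1r2, with 35, did not pass. The libraries came from C57BL/6 mice, all labelled adult and male, and there were 12, with 3 in each of 4 groups. Control_water was saline-injected mice drinking water, and Control_captopril was saline-injected mice given captopril, an inhibitor of angiotensin-converting enzyme whose dose is not in the labels. GN_water and GN_captopril were the corresponding groups with glomerulonephritis (GN), an inflammation of the kidney's filtering units. For 6 weeks these mice had received intraperitoneal horse spleen apoferritin (10 mg, 5 injections a week) and lipopolysaccharide (100 micrograms, 3 injections a week), and kidneys were taken at week 9. Lipopolysaccharide was therefore given to every GN mouse and to no control, so that the foreign protein and lipopolysaccharide cannot be told apart here. Library titles carry pairs of numbers and do not say whether a library was 1 mouse or a pool, and p-values therefore measure only the spread between these libraries, which may be technical in part.

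Interleukin 1 (IL-1) is a signal of early inflammation. Its alpha and beta forms both bind the type 1 receptor, and the receptor antagonist encoded by Il1rn occupies that receptor without signalling. IL-1 beta and IL-18 are made as inactive precursors that caspase-1 cuts once a sensor such as NLRP3 has assembled an inflammasome, while caspase-11, the product of mouse Casp4, responds to lipopolysaccharide inside the cell, and both caspases cut gasdermin D, which then opens pores in the membrane. These steps act on protein, and the libraries measured RNA only.

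Total counts ran from 14.2 to 22.8 M (M, mega), and levels are given as CPM, counts per M of the library total after TMM scaling for composition. Libraries in Control_captopril and GN_water carried the female transcript Xist at 181 to 375 CPM with a Y-linked sum of at most 0.101 CPM, against their label, while those in Control_water and GN_captopril had a Y-linked sum of 121 to 144 CPM and Xist at most at 0.182 CPM. Ren1, which encodes renin and is known to rise under inhibition of the converting enzyme, was at 63.4 to 82.8 CPM in Control_captopril and 1083 to 1794 CPM in Control_water, and at 438 to 691 CPM in GN_captopril and 20.8 to 30.2 CPM in GN_water. Libraries are therefore named by their labels throughout, and captopril-labelled is used for what the label says. In both comparisons of captopril with water at 1 disease state, in both comparisons of GN with control within 1 treatment, and in the interaction of GN and captopril, the label and these markers cannot be told apart. GN_water against Control_captopril and GN_captopril against Control_water set against each other libraries alike in the presence or absence of Xist and Y-linked transcripts. GN averaged over both treatments is balanced for that presence. Only this is meant by like markers below. Ren1 did not overlap within either pair, and Xist was at 181 to 212 CPM in GN_water and 314 to 375 CPM in Control_captopril. Adrenal transcripts summed to 6917 counts in Control_captopril replicate 3 and 1648 in GN_captopril replicate 3, to 350 and 136 in GN_captopril replicate 2 and Control_captopril replicate 1, and to 16 to 31 in the others.

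Casp1 and Casp4 lie next to each other on chromosome 9, on the same strand and with 1567 bases between them, at chr9:5298517-5307281 and chr9:5308849-5336791 (GRCm38, the assembly also called mm10). Il1b lies at chr2:129364569-129371164 on the minus strand, 54.4 kb from Il1a at chr2:129299609-129310186, and Il1rn lies at chr2:24336860-24351491 on the plus strand. Il1r2 and Il1r1 lie 97.2 kb apart on chromosome 1, at chr1:40084692-40125230 and chr1:40222480-40316201. Il18 lies at chr9:50554700-50581841, Nlrp3 at chr11:59541569-59566955 and Gsdmd at chr15:75862144-75867408. An exon of the antisense gene Il1bos overlaps Il1b, and one of Gm14023 overlaps Il1a. The counting is not stated to use strand, so reads of these pairs cannot be told apart.

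Stretches before the start of 4 members whose RNA was higher in GN are printed because they set the neighbouring caspases, and the cytokine and its antagonist, side by side. They are RefSeq sequence of GRCm38.p6, 5′ to 3′ on the strand of the gene, at chr2:129371165-129371239 (minus strand), chr2:24336710-24336859, chr9:5298417-5298516 and chr9:5308729-5308848 (plus strand), and were chosen after the matches had been seen. Positions count back from the outermost RefSeq start. The Il1b stretch runs from -100 to -26, because the bases between it and that start lie in a GENCODE exon and were left out. The other stretches end at -1. Capitals mark a match to 1 of 6 motifs.
Il1b: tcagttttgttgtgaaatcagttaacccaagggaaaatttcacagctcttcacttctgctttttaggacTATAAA
Il1rn: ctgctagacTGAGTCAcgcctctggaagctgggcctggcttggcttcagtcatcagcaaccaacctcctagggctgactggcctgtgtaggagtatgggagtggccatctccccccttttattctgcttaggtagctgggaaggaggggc
Casp1: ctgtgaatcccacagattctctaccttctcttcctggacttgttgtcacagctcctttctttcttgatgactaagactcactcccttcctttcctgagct
Casp4: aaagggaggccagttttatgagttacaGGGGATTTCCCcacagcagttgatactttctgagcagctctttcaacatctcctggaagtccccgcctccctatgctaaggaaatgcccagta

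The motifs were searched on both strands in the 250 bases before the outermost RefSeq start of each of the 9 members that had an entry, and in all 32851 such windows. The kappaB consensus matched Casp4 (2 overlapping matches, from position -93 to -83) and Nlrp3, and 3.9% of all windows. TATAAA matched Il1b at -31, Il1a and Il18, and 12.4% of all windows. TGACTCA, the AP-1 consensus, matched Il1rn at -141 on its other strand and Il1a, and 4.46% of windows. TTGCNNAA matched Il1r1 alone among the members and 9.56% of windows. A repeat of GAAA, any 2 bases and GAAA again, and the ISRE consensus (interferon-stimulated response element) matched no member and 2.98% and 0.231% of windows. A match describes letters in these windows and not the binding of a factor.

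Il1b, the main secreted form of IL-1, was higher in GN. It was at 1.58, 1.33 and 1.74 CPM in the Control_water libraries and at 1.30, 1.43 and 1.42 CPM in Control_captopril. In GN_water it was at 8.38, 6.08 and 5.24 CPM, and in GN_captopril at 4.12, 4.94 and 4.95 CPM. All 6 GN libraries lay above all 6 controls, and all GN_water libraries above all GN_captopril ones. GN averaged over treatments gave a log2 fold change of 1.92 ± 0.14 (SE, 3 libraries a group), or 3.77-fold (edgeR quasi-likelihood test, adjusted p = 1.24e-06). At an adjusted p under 0.05, 30.9% of the 14618 genes tested were called in that comparison, 16.3% higher and 14.6% lower, and 8 of the 8 members that passed the filter were called higher. Their median log2 fold change was 1.45 and that of all genes tested was -0.01. Of all genes tested, 5.38% had every GN library above every control, and 5 members did, which were Il1b, Il1rn, Il18, Casp1 and Casp4. Il1rn passed the filter only through the GN libraries and so had to differ.

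Il1a, the form of IL-1 that also acts from within or on the surface of the cell, was near the limit of detection. It had 0, 0 and 1 counts in Control_water, 1, 2 and 0 in Control_captopril, 1, 11 and 4 in GN_water, and 0, 0 and 2 in GN_captopril. Of its 18 counts in GN libraries, 11 came from GN_water replicate 2. The ratio of GN to control counts, corrected for library size, was 4.64 with a 95% interval of 1.53 to 18.9 that covers counting error only. Without the filter on low counts, edgeR did not call it in GN averaged over treatments (adjusted p = 0.354).

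Il18, a related cytokine that kidney tubules also make, had the second smallest change among the members tested. Control_water libraries had 1.58, 1.88 and 2.13 CPM and Control_captopril ones 1.12, 1.29 and 1.52 CPM. The GN_water values were 2.20, 2.51 and 2.27 CPM and the GN_captopril values 2.52, 2.47 and 3.23 CPM. The GN libraries all lay above the controls, but the gap between the highest control and the lowest GN library was small. The log2 fold change was 0.70 ± 0.14 for GN averaged over treatments (edgeR, adjusted p = 0.00206). Il18 was the one member whose mean was higher in GN_captopril (2.74 ± 0.42 CPM, SD, n = 3) than in GN_water (2.33 ± 0.16 CPM), a difference that did not pass (log2 0.23 ± 0.19, edgeR adjusted p = 0.34).

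Il1rn, which encodes the receptor antagonist, changed by the largest factor of the 8 members tested. It had 1, 0 and 3 counts in Control_water and 3, 2 and 2 in Control_captopril. GN_water libraries had 55, 77 and 54 counts (2.52, 3.17 and 2.67 CPM), and GN_captopril libraries had 24, 30 and 20 counts (1.59, 1.65 and 1.44 CPM). The 3 levels, near 0 in both controls, intermediate in GN_captopril and highest in GN_water, did not overlap. The share of all genes with such a pattern was not counted. GN libraries held 260 counts and controls 11, a ratio of 24.4 after correction for library size, with a 95% counting interval of 13.4 to 49.5. The log2 fold change fitted by edgeR was 4.43 ± 0.30 (adjusted p = 8.37e-07), and its size depends on how the few control counts are modelled. Because Il1rn passed the filter only through the GN libraries, a higher value was bound to be found, and this call is no support.

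**Figure D1:**
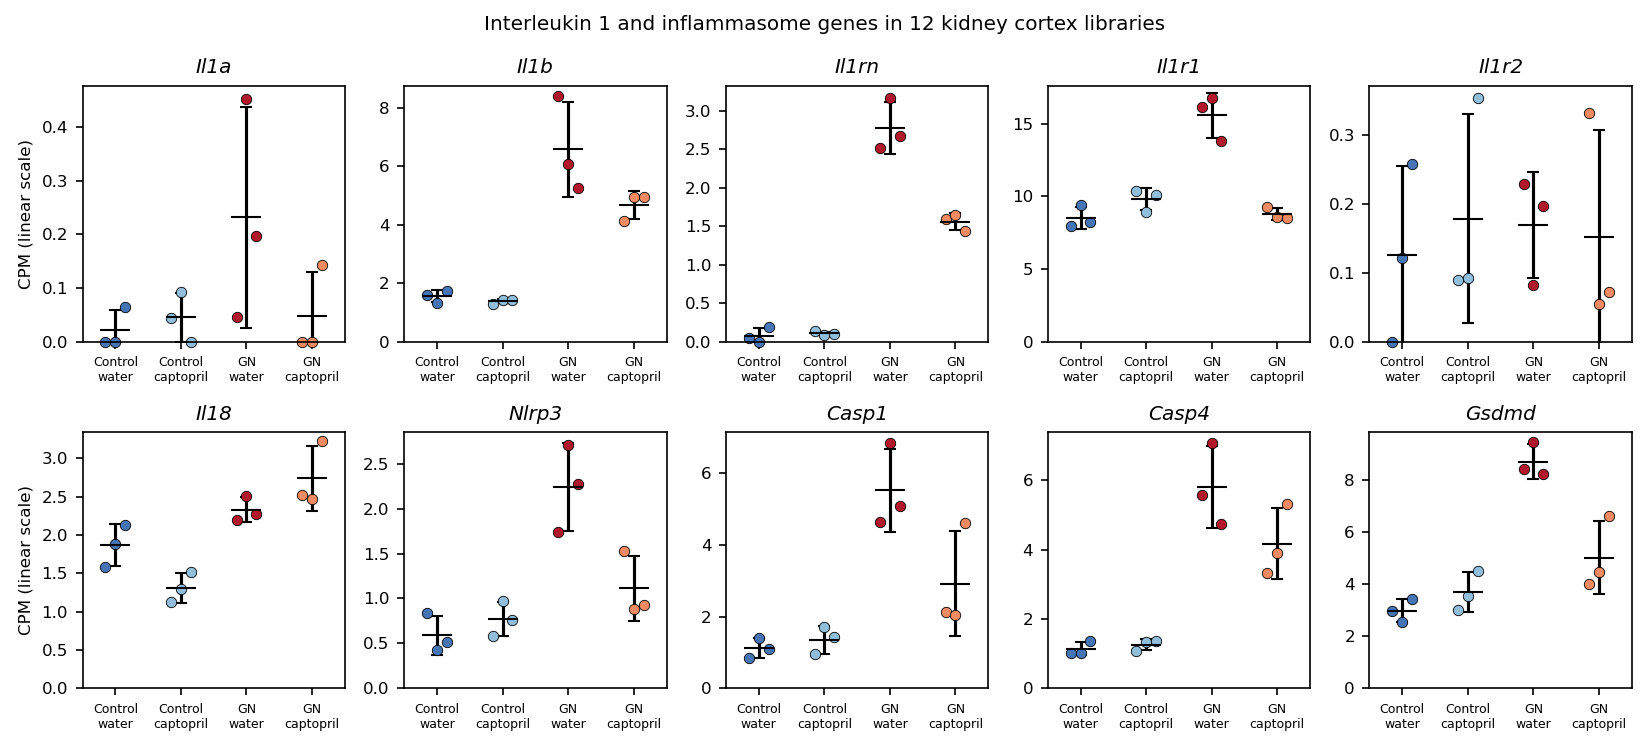
CPM of the 10 genes on linear axes, 1 panel a gene, with 1 point a library, by group; the horizontal line is the mean of 3 libraries and the bar its SD, with bars ending at 0 where the SD reaches below it. Il1b, Il1rn, Il18, Casp1 and Casp4 have all 6 GN libraries above all 6 controls, while Il1r1 stands out in GN_water alone and Il1a and Il1r2 reach at most 0.452 CPM.

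Set beside Il1b, the antagonist took a larger share of the pair in GN. Il1rn made up 2.86%, 0% and 10% of the summed counts of Il1rn and Il1b in Control_water, and 9.38%, 6.06% and 6.67% in Control_captopril. In GN_water the shares were 23.1%, 34.2% and 33.8%, and in GN_captopril 27.9%, 25% and 22.5%. All GN libraries lay above all controls, with a mean of 27.7% against 5.83%, and the 2 GN groups overlapped. The share of 0% rests on 22 Il1b counts and no Il1rn count. The same was done for the neighbouring caspases, where Casp4 made up 42.5% to 55.3% of Casp4 and Casp1 counts in controls and 48.2% to 65.7% in GN, overlapping. These 2 shares were chosen after the counts had been seen and are given as a description, with no test.

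**Figure D2:**
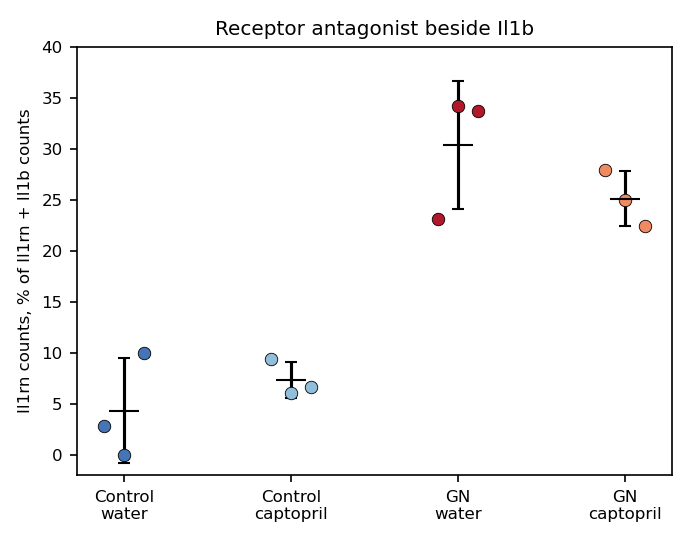
Il1rn counts as a percentage of Il1rn plus Il1b counts, 1 point a library, by group, with the mean of 3 libraries and its SD. GN libraries lie between 22.5% and 34.2% and controls between 0% and 10%.

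Il1r1, the receptor that signals, was high in GN_water and not in GN_captopril. Control_water libraries had 7.96, 9.41 and 8.25 CPM, Control_captopril 10.4, 8.93 and 10.1 CPM, and GN_captopril 9.30, 8.56 and 8.54 CPM. GN_water libraries had 16.1, 16.8 and 13.8 CPM, above the other 9, which overlapped. The share of all genes with GN_water above all other libraries was not counted, here or for Nlrp3 and Gsdmd below. Of the genes tested, 31.7% had all GN_water libraries above all GN_captopril ones. The averaged log2 fold change of 0.36 ± 0.08 (edgeR, adjusted p = 0.00305) therefore joined 0.67 ± 0.10 in GN_water against Control_captopril (adjusted p = 0.000308) and 0.05 ± 0.11 in GN_captopril against Control_water (adjusted p = 0.835). Of the genes tested, 30.1% and 12.1% were called in these 2 comparisons. Captopril averaged over disease, which with its sign turned is the difference of these values divided by 2, was called for Il1r1 (log2 fold change -0.31 ± 0.08, edgeR adjusted p = 0.0285), beside 6.51% of all genes (3.34% lower), and for no other member. That call was lost (adjusted p up to 0.0878) on leaving out replicate 2 of any group or GN_water replicate 1, or both libraries highest in adrenal transcripts. Without those adrenal-rich libraries Gsdmd was called instead (log2 fold change -0.45, edgeR adjusted p = 0.0466).

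Il1r2, the decoy receptor that binds IL-1 without signalling, had few counts. They were 0, 2 and 4 in Control_water, 2, 2 and 7 in Control_captopril, 5, 2 and 4 in GN_water, and 5, 1 and 1 in GN_captopril. The groups overlapped, and the GN to control count ratio was 1.09 with a 95% counting interval of 0.531 to 2.26. A change within that interval was not detectable at this depth.

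Nlrp3, the inflammasome sensor, was at 0.838, 0.425 and 0.516 CPM in Control_water and at 0.583, 0.967 and 0.759 CPM in Control_captopril. It was at 1.74, 2.71 and 2.27 CPM in GN_water and at 1.53, 0.878 and 0.933 CPM in GN_captopril. GN_water lay above every other library, a pattern whose share of all genes was not counted, while GN_captopril overlapped Control_captopril. The log2 fold change was 1.20 ± 0.23 averaged over treatments (edgeR, adjusted p = 0.00183), 1.54 ± 0.30 in GN_water against Control_captopril (adjusted p = 0.00187) and 0.86 ± 0.36 in GN_captopril against Control_water, where it did not pass (adjusted p = 0.139).

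Casp1, the caspase that matures IL-1 beta and IL-18, was at 0.838, 1.40 and 1.10 CPM in Control_water and 0.942, 1.70 and 1.42 CPM in Control_captopril. GN_water libraries had 4.63, 6.82 and 5.09 CPM, and GN_captopril libraries 2.13, 2.03 and 4.59 CPM. Replicate 3 of GN_captopril, which also had the second highest adrenal sum, was close to the lowest GN_water library, and the other 2 lay just above the highest control. Averaged over treatments the log2 fold change was 1.71 ± 0.24 (edgeR, adjusted p = 0.000145). In GN_captopril against Control_water it was 1.39 ± 0.36 (adjusted p = 0.0246), and 0.92 without GN_captopril replicate 3, where it did not pass (adjusted p = 0.098). Leaving out Control_water replicate 1 or 3 also ended that call (adjusted p = 0.0866 and 0.0585).

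Casp4, which senses lipopolysaccharide in the cell, was at 1.02, 1.03 and 1.35 CPM in Control_water and 1.08, 1.34 and 1.37 CPM in Control_captopril. GN_water libraries had 5.59, 7.07 and 4.74 CPM and GN_captopril libraries 3.32, 3.89 and 5.31 CPM. Every GN library was above every control by more than the whole range of the controls, and the GN groups overlapped. Its averaged log2 fold change of 2.04 ± 0.16, or 4.12-fold (edgeR, adjusted p = 1.92e-06), was second in size to that of Il1rn. It was called in both comparisons of libraries with like markers, at 2.21 ± 0.22 (adjusted p = 1.28e-05) and 1.88 ± 0.24 (adjusted p = 0.000517).

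Gsdmd, the pore protein cut by both caspases, was at 2.98, 2.55 and 3.42 CPM in Control_water and 3.01, 3.55 and 4.50 CPM in Control_captopril. GN_water libraries had 8.38, 9.46 and 8.20 CPM, above all others, and GN_captopril libraries had 3.99, 4.44 and 6.60 CPM, overlapping Control_captopril. The averaged log2 fold change was 0.99 ± 0.14 (edgeR, adjusted p = 0.000176). It was 0.74 ± 0.21 in GN_captopril against Control_water (adjusted p = 0.0364), a call that was lost without GN_captopril replicate 3 (0.50, adjusted p = 0.144) and without Control_water replicate 1 or 2 (adjusted p = 0.0829 and 0.122).

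**Figure D3:**
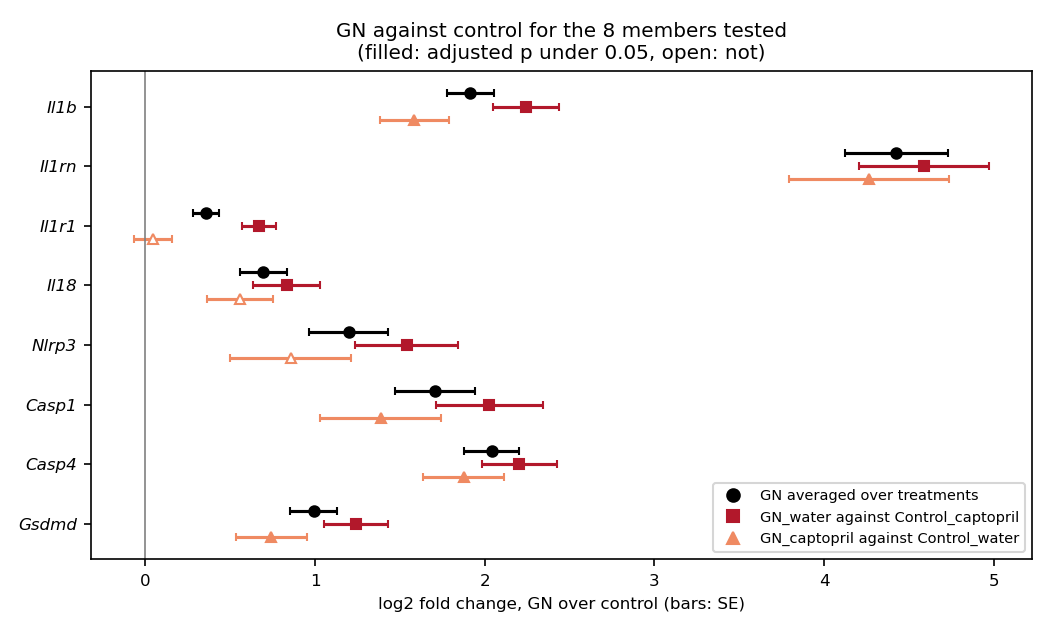
Log2 fold change of GN over control with its SE for the 8 members tested, averaged over treatments (circles) and in the 2 comparisons of libraries with like sex-linked markers (squares and triangles); filled symbols have an adjusted p under 0.05. All 8 are filled when averaged and in GN_water against Control_captopril, and Il1r1, Il18 and Nlrp3 are open in GN_captopril against Control_water.

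Among single comparisons of GN with control, 8 members were called higher in GN_water against Control_captopril and 5 in GN_captopril against Control_water, beside 16.9% and 7.05% of genes called higher. Within 1 treatment, GN and the sex-linked markers cannot be told apart. Within water, 7 were called higher in GN, beside 27.4% of genes (51.2% in either direction), and Il18 was not (log2 0.33 ± 0.19, edgeR adjusted p = 0.167). Within captopril 5 were called higher, beside 20.5% of genes called higher and 19.3% lower (39.8% in all), and Il1r1 (-0.16 ± 0.11), Nlrp3 (0.52 ± 0.34) and Gsdmd (0.44 ± 0.20) were not, with edgeR adjusted p-values of 0.272, 0.238 and 0.0998. The call for Casp1 within captopril (1.09 ± 0.34, adjusted p = 0.0209) was lost without GN_captopril replicate 3 (0.62, adjusted p = 0.125), without Control_captopril replicate 1 (adjusted p = 0.0845) and without the 2 libraries highest in adrenal transcripts (adjusted p = 0.168). These comparisons share libraries, so their counts do not support each other. No member was called lower in GN in any of them. The count of 5 in GN_captopril against Control_water was 3 without Control_water replicate 1 and without GN_captopril replicate 3.

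Between the GN groups, 6 of 8 members were lower in GN_captopril than in GN_water, where 45.1% of genes were called, 25.5% lower and 19.6% higher. Il1r1 fell by 0.83 ± 0.10 on the log2 scale (edgeR, adjusted p = 3.89e-05), Nlrp3 by 1.02 ± 0.30 (adjusted p = 0.0143), Casp1 by 0.94 ± 0.30 (adjusted p = 0.0208), Il1rn by 0.83 ± 0.27 (adjusted p = 0.0221), Gsdmd by 0.80 ± 0.19 (adjusted p = 0.00396) and Il1b by 0.49 ± 0.17 (adjusted p = 0.0351). Casp4 differed by -0.48 ± 0.20 (adjusted p = 0.0622). It was called without GN_captopril replicate 3 (edgeR, adjusted p = 0.0163) and without the 2 libraries highest in adrenal transcripts (adjusted p = 0.0209). All GN_water libraries were above all GN_captopril ones for the 6 called members, as for 31.7% of all genes tested. The count of 6 fell to 3 without GN_captopril replicate 1 and to 2 without GN_captopril replicate 2 or GN_water replicate 2. The call for Il1b was lost in 8 of 18 alternatives, among them DESeq2 and leaving out GN_water replicate 1 (adjusted p up to 0.289 over all settings). That for Il1rn was lost in 6 (adjusted p up to 0.0976), and those for Nlrp3 and Casp1 in 3 each. The calls for Il1r1 and Gsdmd were kept in all 18.

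Between the control groups, edgeR called none of the 8 members tested and DESeq2 called 0, beside 32.4% of all genes called by edgeR, and 1 member, Il18, had an unadjusted p under 0.05. The largest differences, captopril-labelled minus water-labelled, were 0.51 ± 0.72 for Il1rn, which rests on 11 counts, and -0.50 ± 0.21 for Il18 (adjusted p = 0.679 and 0.0788). The interaction, the captopril-labelled difference in GN minus that in controls, was called lower for Il1r1 (-1.03 ± 0.15), Nlrp3 (-1.35 ± 0.47), Casp1 (-1.24 ± 0.48) and Gsdmd (-1.10 ± 0.28) and higher for Il18 (0.73 ± 0.28), beside 27.1% and 23.6% of all genes, or 50.7% together. It sets Control_captopril and GN_water, the Xist-positive libraries, against the Y-positive ones. The edgeR adjusted p-values were 8.16e-05 for Il1r1, 0.00539 for Gsdmd, 0.0283 for Nlrp3, 0.0419 for Il18 and 0.0448 for Casp1. The calls for Il1r1 and Gsdmd were kept in the 17 alternatives run. That for Il18 was lost in 10 of the 17, among them DESeq2 (adjusted p = 0.0928) and no filter on low counts (edgeR, adjusted p = 0.059), and those for Nlrp3 and Casp1 in 8 each. The count of 5 became 3 without Control_water replicate 2 or 3, GN_captopril replicate 2 or GN_water replicate 2, and 2 without Control_captopril replicate 2 or GN_water replicate 3.

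**Figure D4:**
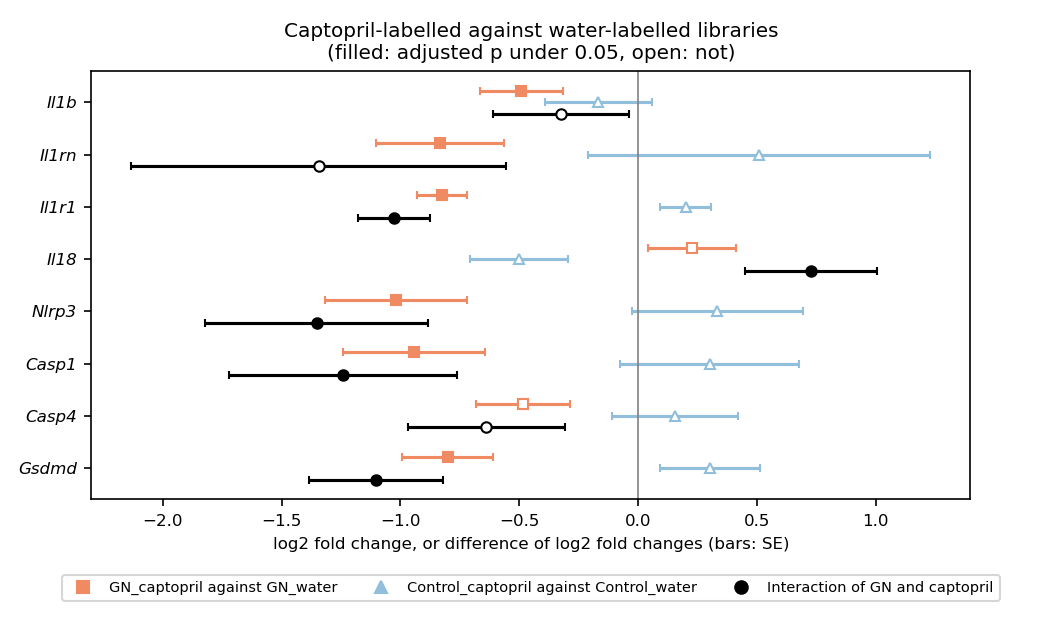
Captopril-labelled over water-labelled log2 fold change with its SE, in GN (squares) and in controls (triangles), and the interaction of the 2 (circles), for the 8 members tested; filled symbols have an adjusted p under 0.05. The 6 filled squares are all below 0 and no triangle is filled.

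Levels can be compared between genes only per length, and CPM per kilobase of annotated exon (all GENCODE exons of a gene joined) was used for this. In Control_water the highest were Il18 (1.81 ± 0.26, SD, n = 3), Il1r1 (1.34 ± 0.12) and Gsdmd (1.25 ± 0.18), of which the last 2 did not differ beyond their spread. Il1b (0.81 ± 0.11) and Casp1 (0.74 ± 0.19) followed and overlapped, and Casp4 was at 0.31 ± 0.05 and Nlrp3 at 0.15 ± 0.05. In Control_captopril Gsdmd (1.55 ± 0.32) and Il1r1 (1.54 ± 0.12) were level, and both overlapped Il18 (1.27 ± 0.19). In GN_water Casp1 (3.68 ± 0.77), Gsdmd (3.65 ± 0.28) and Il1b (3.44 ± 0.85) were highest and overlapped, before Il1r1 (2.45 ± 0.24) and Il18 (2.26 ± 0.16), which also overlapped. In GN_captopril the order was Il18 (2.66 ± 0.41), Il1b (2.45 ± 0.25), Gsdmd (2.11 ± 0.59) and Casp1 (1.95 ± 0.97), neighbours that all overlapped. Il1r1 followed at 1.38 ± 0.07 and overlapped Casp1, at 1.34 to 1.46 against 1.36 to 3.07. Joined exons overstate the length of genes with long alternative transcripts, such as Il1rn with 5.535 kb, and understate their level.

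Other genes of the pathway were taken from 6 lists, and their counts are for GN averaged over treatments, where 16.3% of all genes were called higher and 14.6% lower and the median log2 fold change was -0.01. Some of these genes reached the filter level of about 0.523 CPM in fewer than 3 control libraries and so passed only through GN libraries, where a higher value was bound to be found; their number is given with each count, and such a call is no support. Of IL-1 family cytokines beyond the members, 2 of 3 tested (6 in the table) were higher, 1 of them through GN libraries only, with a median log2 fold change of 0.71 over the 3: Il33, an alarmin of stromal and endothelial cells, at a log2 fold change of 0.71 ± 0.10 (edgeR, adjusted p = 0.000241), and Il1f6, which encodes IL-36 alpha, at 3.55 ± 0.96 (adjusted p = 0.013). Il1f6 averaged 0.961 CPM in GN_water and 0.0215 to 0.144 CPM in the other groups. It passed the filter only through GN libraries and was not called in GN_captopril against Control_water (adjusted p = 0.347). Of receptors and binding proteins, 5 of 7 tested (9 in the table) were higher, 1 of them (Il1rl2) through GN libraries only, and 1 lower, with a median of 0.84. Il18r1, the binding chain of the IL-18 receptor, rose by 1.88 ± 0.24 (adjusted p = 8.04e-05), and Il1rl1, the IL-33 receptor, by 0.84 ± 0.24 (adjusted p = 0.017). For Il1rl1 that average joined 1.69 ± 0.31 in GN_water against Control_captopril (adjusted p = 0.00111) and 0.0013 ± 0.37 in GN_captopril against Control_water (adjusted p = 0.999). Sigirr, a receptor that damps signalling by this family and the most abundant of those named here at a mean of 89.7 CPM, fell by 0.15 ± 0.04 (adjusted p = 0.0116). The fall was in GN_captopril against Control_water (-0.34 ± 0.06, adjusted p = 0.00219) and not in GN_water against Control_captopril (0.04 ± 0.06, adjusted p = 0.584), and Control_water at 106.8 CPM stood above the other groups at 82.7 to 85.3 CPM.

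Of inflammasome sensors, adaptor and regulators, 9 of 17 tested (18 in the table) were higher, 3 of them through GN libraries only, and none lower, with a median of 0.38. Mefv, which encodes the sensor pyrin, averaged 0.148 and 0.0303 CPM in the controls and 1.84 and 1.39 CPM in GN_water and GN_captopril (log2 fold change 4.38 ± 0.52, edgeR adjusted p = 3.82e-05), and is 1 of those 3. P2rx7, the channel opened by extracellular ATP upstream of NLRP3, rose by 0.96 ± 0.12 (adjusted p = 8.31e-05), and Naip2, a sensor of bacterial secretion systems, by 0.92 ± 0.13 (adjusted p = 0.000134). Of caspases and pore proteins, 4 of 8 tested (13 in the table) were higher and none lower, with a median of 0.32, led by Casp12, an inflammatory caspase of the same family as Casp4, at 1.54 ± 0.15 (adjusted p = 9.96e-06). Casp8, a caspase of apoptosis, rose by 0.15 ± 0.05 on average (adjusted p = 0.0343), which joined 0.34 ± 0.07 in GN_captopril against Control_water (adjusted p = 0.00814) and -0.04 ± 0.07 in GN_water against Control_captopril (adjusted p = 0.674).

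Of 15 genes of signalling below the IL-1 and Toll-like receptors, all tested, 5 were higher and 2 lower, with a median of -0.03 beside -0.01 for all genes. Irak3, which encodes IRAK-M, an inhibitor of this signalling, rose by 1.87 ± 0.24 (edgeR, adjusted p = 7.38e-05), whereas the adaptor Myd88 rose by 0.33 ± 0.04 (adjusted p = 0.000138) and the kinase gene Irak4 by 0.41 ± 0.07 (adjusted p = 0.000933). Of known target genes of IL-1, 6 of 7 tested (11 in the table) were higher, 1 of them (Cxcl1) through GN libraries only, and none lower, with a median of 0.93. The feedback inhibitors of NF-kappaB rose, Nfkbia by 0.75 ± 0.06 (adjusted p = 1.35e-06) and Tnfaip3 by 1.001 ± 0.075 (adjusted p = 1.35e-06). Cxcl1, a neutrophil chemokine, rose by 3.27 ± 0.38 (adjusted p = 3.25e-05), at a mean of 0.127 and 0.0779 CPM in the controls and 1.28 and 0.836 CPM in GN_water and GN_captopril. Ptgs2 rose by 1.61 ± 0.23 on average (edgeR, adjusted p = 0.000163), but its groups were split. Its mean was 1.38 CPM in Control_water and 1.23 CPM in GN_water, and 0.276 CPM in Control_captopril and 2.96 CPM in GN_captopril. Il6, with 5 counts in all libraries, and Cxcl2, with 39, did not pass the filter. These genes also respond to Toll-like receptors and other cytokines. In GN_captopril against GN_water, where 19.6% of all genes were called higher and 25.5% lower, 7 of the 17 inflammasome genes tested were lower and 2 higher, 3 of the 7 receptor genes were lower and 1 higher, and 3 of the 7 target genes were lower and 1 higher. Of the 15 signalling genes 4 were lower and 5 higher there, and all 3 of the other cytokines tested were lower. Of the 8 caspases and pore proteins tested, 1 was lower and 1 higher.

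Markers of most leukocyte types listed, and of mesangial, pericyte and fibroblast cells, were mostly higher in GN, as the members were. Of all genes, 16.3% were called higher and 14.6% lower in GN averaged over treatments. There, 4 of 6 proximal tubule, 4 of 7 distal nephron and 3 of 5 podocyte markers were lower, and 0, 1 and 1 higher. Of 6 dendritic cell markers 3 were higher and 0 lower, and of 5 endothelial markers 1 was higher and 1 lower. In bulk tissue, fewer or more cells of a type and a change in RNA per cell cannot be told apart. All 11 macrophage and monocyte markers were higher in GN averaged over treatments, and their summed level was 174 to 178 CPM in Control_water, 138 to 196 CPM in Control_captopril, 998 to 1431 CPM in GN_water and 517 to 979 CPM in GN_captopril, with 979 CPM in replicate 3. Of 10 neutrophil markers 4 could be tested and all were higher, 2 of them through GN libraries only, with sums of 2.38 to 4.13 CPM in controls and 8.01 to 15.3 CPM in GN. The defining neutrophil marker Ly6g was at 0 in both control groups and in GN_water, and Mpo at 0 in both control groups and in GN_captopril. Of 8 T and natural killer cell markers 7 were higher, with sums of 5.07 to 10.4 CPM in controls, 33.9 to 44.3 CPM in GN_water and 22.1 to 28.1 CPM in GN_captopril. Of 5 B and plasma cell markers 4 were higher, 1 of them through GN libraries only, with sums of 4.79 to 12.4 CPM in controls, 186 to 621 CPM in GN_water and 40.1 to 101 CPM in GN_captopril. Of 6 mesangial, pericyte and fibroblast markers 5 were higher. This list summed to 182 to 228 CPM in controls, 346 to 446 CPM in GN_water and 207 to 326 CPM in GN_captopril. GN_water thus stood above all other libraries, as for Il1r1, but this was not particular to that list. It also held for the sums of every leukocyte type listed except neutrophils, where the GN groups overlapped. Dendritic cell sums were 11.5 to 15.8 CPM in controls, 18.7 to 22.2 CPM in GN_water and 14.3 to 17.1 CPM in GN_captopril. In GN_captopril against GN_water, 10 of the 11 macrophage, 5 of the 8 T and natural killer cell, 5 of the 5 B and plasma cell, 5 of the 6 mesangial and 6 of the 7 distal nephron markers were lower. So were 4 of the 5 podocyte, 4 of the 5 endothelial and 3 of the 6 dendritic cell markers, while 1 endothelial marker was higher. In that comparison 25.5% of all genes were called lower, as were 0 of 4 neutrophil markers. Of 6 proximal tubule markers 1 was lower and 2 were higher there. The part of these cells in the members' changes was not tested.

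**Figure D5:**
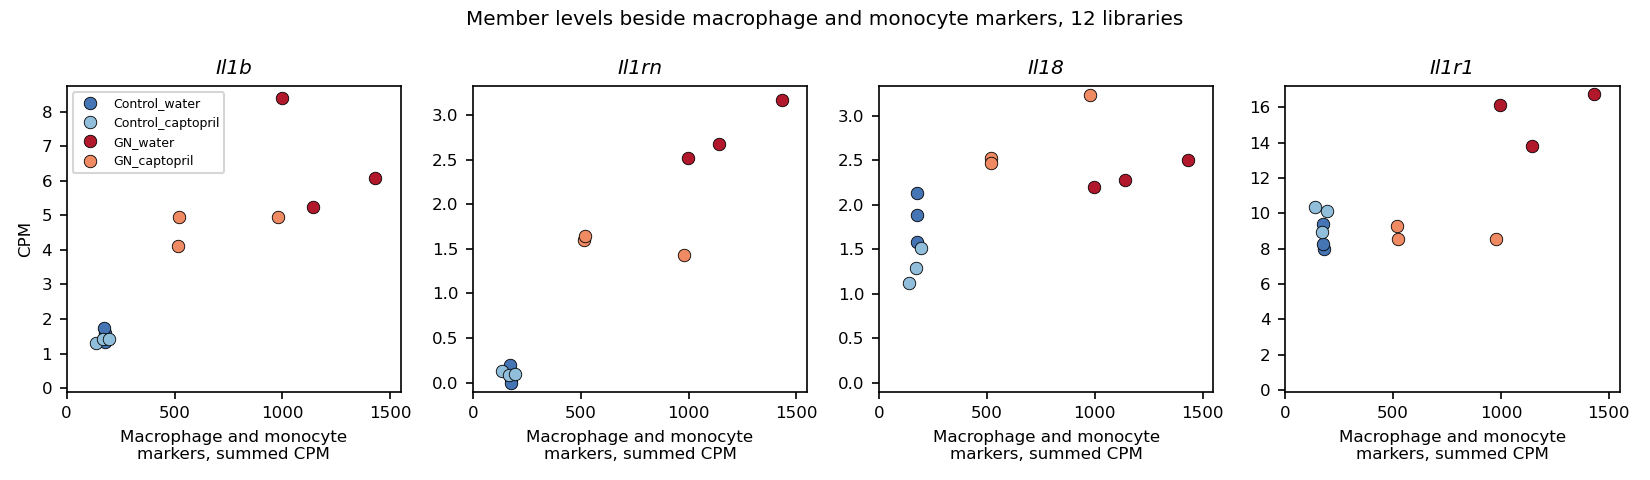
CPM of Il1b, Il1rn, Il18 and Il1r1 against the summed CPM of 11 macrophage and monocyte markers, both linear, 1 point a library, coloured by group. The controls sit together at marker sums of 138 to 196 CPM, and GN_captopril libraries lie level with the controls for Il1r1 although their marker sums are 517 to 979 CPM.

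Divided by the marker sum, members differed in direction, and for some the direction depended on 1 marker. Per 1000 CPM of all 11 markers, Il1r1 fell from 48.4 ± 4.4 in Control_water and 59.8 ± 13.5 in Control_captopril (SD, n = 3) to 13.3 ± 2.5 in GN_water and 14.4 ± 5.0 in GN_captopril, and it was also lower without Lyz2, at 59.4 and 72.7 in controls against 33.1 and 30.4 in GN. Il1rn was higher in GN either way, at 0.46 ± 0.58 and 0.68 ± 0.26 in controls against 2.36 ± 0.16 and 2.57 ± 0.95 in GN with all markers. Il1b was at 8.81 ± 1.21 and 8.36 ± 1.12 in controls against 5.75 ± 2.31 and 7.49 ± 2.24 in GN with all 11, but at 10.8 and 10.2 against 14.2 and 15.9 without Lyz2. The direction of its means turned, but GN and control libraries overlapped both ways. Casp4 was at 6.45 and 7.55 in controls against 4.90 and 6.44 in GN with all 11, overlapping. Without Lyz2 it was higher in GN, at 7.93 and 9.21 against 12.2 and 13.9. Lyz2 made up 15.2% to 20.2% of the sum in controls and 49.2% to 61.3% in GN. These ratios were chosen after the levels had been seen and were not tested.

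Genes with the pattern most like each member were sought by Pearson correlation of log2 CPM over the 12 libraries among 12857 genes with a mean of at least 1 CPM. The libraries share their groups, so these values mostly describe differences between groups. Casp4 was most like Plek, Irg1 and Spn (r = 0.99 each), and Casp1 most like Gng2, Ncf1 and Zbp1 (r = 0.99 each). Il1rn was most like Fpr1, Mcemp1 and Irg1 (r = 0.98 each), and Il1b most like Ltbp2 (r = 0.98), Mcam (r = 0.98) and Clec12a (r = 0.97). Gsdmd was most like Arpc1b, Lilr4b and Tmsb4x (r = 0.98 each). Nlrp3 was most like Cdk1, Col5a1 (r = 0.97 each) and Fblim1 (r = 0.96), Il18 most like Parp9 (r = 0.97), C4b (r = 0.96) and Ly6e (r = 0.95), and Il1r1 most like Adamts12, Hyls1 and Cfi (r = 0.95, 0.95 and 0.94). Among members, Il1b, Il1rn and Casp4 were close to each other over the 12 libraries (r = 0.97 for each pair). After group means were removed the closest pair was Casp4 and Gsdmd (r = 0.86), and the pair Il1b and Il1rn was at r = 0.27. GN_captopril replicate 3 was the highest of its group for Casp4 (5.31 CPM) and Gsdmd (6.60 CPM), and its weight in that value was not tested.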

How the data were processed

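RNA was measured in 12 kidney cortex libraries, with groups as labelled. The authors deposited expected counts, that is estimated counts per gene symbol that were not scaled for depth and not all whole, and they were rounded before testing. Bowtie2, Partek and mm10 were used, per the submitters' processing notes, and versions, roles, annotation and the use of strand were not stated there. RPKM values that were also deposited were not used. Reads shared between similar genes could be split in such counts.

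Genes were kept with filterByExpr in edgeR 4.0.16 (R 4.3.3; minimum count 10, minimum total 15), which left 14618 of 24452. After TMM scaling, quasi-likelihood models were fitted, 1 mean a group over the 12 libraries, two-sided, with Benjamini-Hochberg adjustment over all genes tested and a threshold of 0.05. All adjusted p-values are from edgeR unless DESeq2 1.42.0 is named. SE were computed from the estimate and its F statistic, and SD are over 3 libraries. Intervals at 95% for count ratios are exact for counting error only. Members and lists were chosen with earlier results of these data known. Pathway genes named are up to 4 a list, by smallest adjusted p among those called, of which the text gives some. Alternatives were DESeq2 size factors, DESeq2, no filter on low counts, only the groups compared, a replicate block, each library left out and both libraries highest in adrenal transcripts left out.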

Additional observations from a re-analysis of the deposited data

Results flagged for a closer look

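In 5 members the captopril-labelled difference differed between GN and controls by the interaction test in edgeR. These were Il1r1 (-1.03 ± 0.15 on the log2 scale, SE, adjusted p = 8.16e-05), Gsdmd (-1.10 ± 0.28, adjusted p = 0.00539), Nlrp3 (-1.35 ± 0.47, adjusted p = 0.0283), Casp1 (-1.24 ± 0.48, adjusted p = 0.0448) and Il18 (0.73 ± 0.28, adjusted p = 0.0419), beside 50.7% of all genes. The calls for Il18, Nlrp3 and Casp1 were lost in 10, 8 and 8 of 17 alternatives, that for Il18 also with DESeq2 (adjusted p = 0.0928). The interaction and the sex-linked markers cannot be told apart. For Il1r1 the GN effects in the 2 comparisons of libraries with like markers also differed. This was seen as a captopril-labelled difference averaged over disease of -0.31 ± 0.08 (edgeR, adjusted p = 0.0285). That call was lost in 6 of 17 alternatives (adjusted p up to 0.0878). The number of 3 libraries a group is too small for a check on single outlying libraries within groups.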

How the results depend on the processing

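All 8 calls for GN averaged over treatments were kept in the 17 alternatives run, and 18 alternatives left the counts of members called as they were in GN_water against Control_captopril, in GN_water against Control_water and in Control_captopril against Control_water. Of the single-gene values under alternatives, 1197 kept their direction and side of the threshold, 65 lost and 7 gained a call, and 2 changed sign. Those 2 were not called in either setting: Il1r1 in GN_captopril against Control_water (0.05) ranged from -0.0075 to 0.118 on leaving out single libraries, and Il1rn in captopril averaged over disease (-0.16) from -0.41 to 0.50.

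The 5 members called in GN_captopril against Control_water became 3 with only the groups compared and 3 without the 2 libraries highest in adrenal transcripts, and 3 to 5 when single libraries were left out. Leaving out single libraries gave 4 to 6 members called in GN_captopril against Control_captopril (5), where Gsdmd gained a call without GN_captopril replicate 1 or Control_captopril replicate 3. It gave 2 to 6 members called in GN_captopril against GN_water (6), 0 to 1 in captopril averaged over disease (1) and 2 to 4 in the interaction (5), where leaving out the 2 adrenal-rich libraries gave 3. Fewer libraries were fitted in these settings, and the cause of each loss was not tested. Over all genes, 1765 were called in GN_captopril against Control_water, and 951 with only the groups compared, 938 without the adrenal-rich libraries, 975 without Control_water replicate 2 and 968 without GN_captopril replicate 3. In captopril averaged over disease 952 were called, and 523 to 1471 on leaving out single libraries. With only the groups compared, the first of these comparisons had 735 of its 951 calls higher.

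Deviations of same-numbered libraries from their group means correlated at -0.24 to 0.24 (median 0.01). Those of libraries with other numbers correlated at -0.28 to 0.30 (median -0.01). With 3 libraries a group, these values cannot show whether same-numbered libraries shared a batch. With the number as a replicate block, 5 members in place of 6 were called in GN_captopril against GN_water. There Il1b did not pass (adjusted p = 0.0509), and no other member's call changed. Il1a and Il1r2 are limited by depth, at 22 and 35 counts.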
